A study of Mus musculus with 12 samples.

Results

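Mouse zygotes at the pronuclear stage PN3 that came from mothers with a Pan2 deletion (KO) were compared with wild-type zygotes of that stage (WT), across all genes. The comparison uses 6 of the series' 12 libraries, 3 KO_PN3 and 3 WT_PN3, chosen by their titles. The other 6 libraries are KO and WT 2-cell embryos, named L2C in the labels, and were used only for the spread between replicates and for the comparison of stages. The labels call the material embryos and name the deletion as maternal. They do not give the deleted part of the gene, a Cre driver, the strain, the age, the sire or the number of pooled embryos. The extraction text in the labels speaks of oocytes, while the series design speaks of zygotes. Since nothing states that replicates came from separate animals or pools, p-values reflect the spread among these libraries alone, which may be technical.

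PAN2 is the nuclease of the PAN2-PAN3 complex, and PAN3 brings it to tails covered with poly(A)-binding protein. In the usual model the complex trims long poly(A) tails and the CCR4-NOT complex removes the rest, after which the cap is removed and the mRNA is degraded. Growing oocytes store mRNAs with short tails, lengthen the tails of chosen mRNAs during maturation, and remove many maternal mRNAs around fertilization, when the genome is largely silent. At PN3 the embryo therefore still lives mostly on mRNA made by the mother.

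Levels were measured from RNA reverse transcribed with oligo(dT) by Smart-seq2. A level is thus that of RNA with a tail that can be primed, and neither total RNA nor tail length was measured. It is given in CPM, the count of a gene for every 1e6 in its library, with libraries TMM-scaled (trimmed mean of M-values). With bulk libraries, a difference in the number or composition of the pooled embryos cannot be told apart from a difference per embryo. The PN3 libraries held between 22929561 and 28624766 counts, and 3 counts in 1 library equal between 0.109 and 0.168 CPM.

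All 15 oocyte and zygote markers were present, and their summed level ranged from 21993 to 34843 CPM in WT and from 22948 to 41697 CPM in KO. Of the 2-cell markers, Zscan4a, Duxf3 and Tdpoz4 were at 0 counts in all 6 libraries, and the summed level of the list (69.4 to 138 CPM in WT, 97.2 to 170 CPM in KO) came mostly from Tcstv1 and Tcstv3. Duxf3 was also at 0 in all L2C libraries, so its 0 says nothing about the stage. Zscan4d had 2 to 118 counts and Zscan4c 0 to 52 counts at PN3. The granulosa markers Inhbb, Amh, Amhr2 and Pgr and the sperm markers Tnp1, Smcp, Acr, Pgk2 and Izumo1 were at 0 in all PN3 libraries. Other members had counts in every PN3 library, such as Prm2 (180 to 381), Akap4 (11 to 127) and Ldhc (22 to 97) of the sperm list. Pecam1, of the list of oviduct, stroma and blood, had 396 to 813 counts. Summed levels lay between 29.3 and 54.3 CPM for the granulosa and cumulus list, where Cyp19a1 and Kitl made up most, between 14.5 and 23.1 CPM for the sperm list and between 29.0 and 78.9 CPM for the list of oviduct, stroma and blood. In those 4 lists of other cells and stages 0 of 45 tested members were called. As 0.132% of all tested genes were called, a count of 0 among so few genes says little.

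Replicate 2 stood apart from the others in both genotypes. CT010467.1, an rRNA gene, took 34.9% of the counts in WT_PN3 replicate 2 and 32.2% in KO_PN3 replicate 2, against 4.35% to 5.63% in the other 4 PN3 libraries. The same libraries carried some connective tissue transcripts: Col1a1, a collagen chain, had 204 and 273 counts there and between 0 and 4 in the others, and Vim, a filament protein of mesenchymal cells, had 244 and 310 counts against 0 to 10. Other members of that marker list did not follow. Dcn had 3 and 4 counts in replicate 2 against 6 to 36, Acta2 22 and 22 against 2 to 26, and Pecam1 396 and 568 against 475 to 813. As both genotypes hold 1 such library, the summed share of rRNA-derived genes did not separate them (15.7% ± 18 in WT and 15.2% ± 16.4 in KO, SD, n = 3 each, two-sided exact permutation p = 0.9, smallest possible 0.1). The shares of mitochondrial mRNA (1.0% ± 0.400 and 0.911% ± 0.280, exact permutation p = 0.8, n = 3 each) and of ribosomal protein mRNA (0.392% ± 0.0256 and 0.392% ± 0.0303, exact permutation p = 0.9, n = 3 each) were also close.

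**Figure D1:**
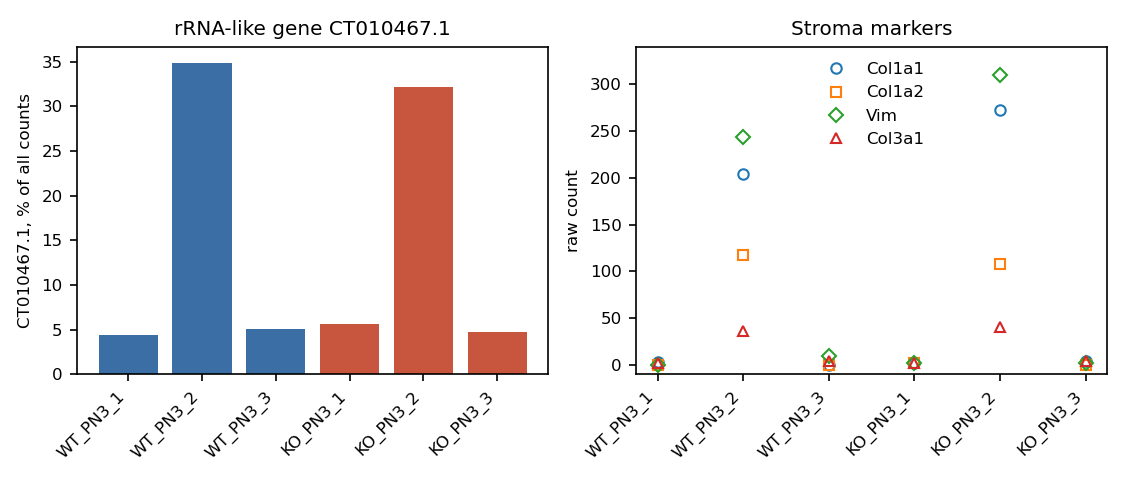
Left, the share of all counts taken by the rRNA gene CT010467.1 in each PN3 library (bars, percent; blue WT, red KO). Right, raw counts of 4 connective tissue markers in the same libraries. Dcn, Acta2 and Pecam1, which did not stand out in replicate 2, are not shown. Replicate 2 of each genotype holds 34.9% and 32.2% of its counts in this gene and nearly all the counts of these markers.

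The targeted gene was read first. Pan2 (chromosome 10, 128303335 to 128321358, plus strand, mm10) had 5187, 3264 and 3651 counts in the WT libraries and 39, 119 and 95 counts in the KO libraries. In CPM these are 189, 173 and 160 against 1.58, 6.67 and 4.52, so every KO library lay far below every WT library. The log2 fold change was -5.36 (SE 0.49, edgeR adjusted p = 0.00128). The rest of the RNA in KO, a mean of 4.26 CPM, cannot be assigned to intact or deleted transcripts from counts per gene. Among the 155 tested genes within 10 Mb of Pan2, 0 were called, against 0.132% of all tested genes. At that share a count of 0 says little about the region.

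Of 21160 genes tested, 28 were called at an edgeR adjusted p under 0.05 (0.132%), 19 higher in KO (0.0898%) and 9 lower (0.0425%). The higher ones include Bub1b of the spindle checkpoint, the pentose phosphate enzyme gene Taldo1, the ephrin gene Efna1, the transcription factor gene Gli2 and the splicing factor gene Cdc5l. The lower ones include, besides Pan2, the lysosomal galactosidase gene Glb1, Gipc2 and the noncoding transcript Gm43269. All 28 differed by at least 2-fold, and in each of them the 3 KO libraries lay entirely on 1 side of the 3 WT libraries. Such a gap was not rare, since 5.9% of all tested genes had every KO library above and 6.96% had every KO library below the WT libraries. In 12 of the 19 higher and 4 of the 9 lower genes the mean of the higher group reached 10 CPM, and in 5 and 5 it stayed under 5 CPM. The median log2 fold change of the 13473 genes of at least 1 CPM was 0.01.

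The number of calls differed widely between fits, and the cause was not tested. Pan2 alone was called in each of the 6 fits that left out 1 PN3 library. It was also the 1 gene of the 28 that kept its call when the close L2C replicates 1 and 2 were summed, and the other 27 then had adjusted p-values of 0.0988 to 0.266. Without WT_PN3 replicate 1 only Cdc5l and Pan2 kept their call among the 28, and without WT_PN3 replicate 3 only Pan2 did, with adjusted p-values of 0.062 to 0.212 and of 0.0675 to 0.156 for those that lost it. Without KO_PN3 replicate 1 there remained 9 of the 28, without KO_PN3 replicate 3 there remained 11, without WT_PN3 replicate 2 there remained 15 and without KO_PN3 replicate 2 there remained 22. With replicate 2 left out in both genotypes 34 genes were called (22 higher, 12 lower), 18 of the 28 among them. When the replicate number was added as a block within each stage, 566 genes were called (2.67%), 303 higher (1.43%) and 263 lower (1.24%), and all 28 were among them. DESeq2 called 538 of 18641 genes with an adjusted p (2.89%), 307 higher (1.65%) and 231 lower (1.24%), again with all 28 among them. With the 6 PN3 libraries alone in the edgeR fit and no block, 0 of 14945 genes were called, Pan2 included (adjusted p = 0.0683), and 1298 had an unadjusted p under 0.05 (8.69%). Adding the block to that fit gave 1521 calls (10.2%), 821 higher (5.49%) and 700 lower (4.68%). Over the 21 alternatives the 28 genes were refitted 576 times, and 0 of these values had the opposite direction. As the KO and WT libraries of these genes did not overlap, a reversal was hardly possible, and this count is no support for the calls.

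**Figure D2:**
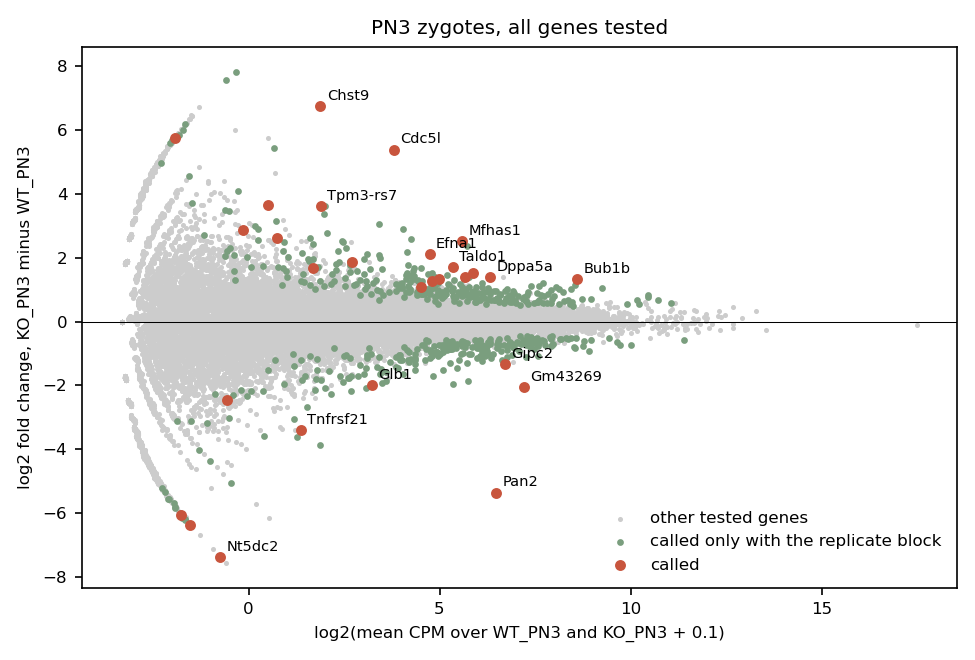
Each tested gene by its mean level in the PN3 libraries (x axis, log2 of CPM plus 0.1) and its log2 fold change, KO minus WT (y axis). Red points are the 28 called genes, green points were called only with the replicate block, and the arcs at the left are genes of a few counts. Pan2 lies at -5.36 and Cdc5l at 5.39.

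Some of the called mRNAs carry, near the end of their 3′ untranslated region (UTR), the letters of a cytoplasmic polyadenylation element, the sequence bound by CPEB1 that marks mRNAs for tail changes in oocytes. The letters searched were TTTTAT or TTTTAAT on the sense strand within the last 100 bases of the UTR of 1 GENCODE M21 transcript per gene. They were found in 5 of 16 called higher genes with such a UTR (31.2%), in 1 of 7 called lower genes (14.3%) and in 18.7% of the 14748 tested genes with one. Among tested genes of at least 5 CPM the share was 21%. Of the genes called with the replicate block, 62 of 266 higher (23.3%) and 20 of 201 lower (9.95%) had the letters, in UTRs with median lengths of 956 and 629 bases. The sites of the called genes are shown because they let the distance to the mRNA end and the neighbouring bases be read. Each is 30 bases of the transcript, 5′ to 3′, with the element in capitals.
Bub1b, chr2:118641559-118641588, plus strand: tgtgtaTTTTATaataaaatagtttttgtt
Taldo1, chr7:141402916-141402945, plus strand: ttctgaTTTTATgtgaaattttgtctaatt
Tmem159, chr7:120120958-120120987, plus strand: gtggtaTTTTATtaaatatttatttgcttc
Efna1, chr3:89271733-89271762, minus strand: tcataataaattgatggttTTTTATggaca
Adamtsl3, chr7:82614367-82614396, plus strand: ttttttTTTTATaacatgagagataatgtt
Pan2, chr10:128321324-128321353, plus strand: aaataaaagtatTTTTATctcattagaaaa

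In Bub1b the element is directly followed by the letters of the poly(A) signal AATAAA, and 21 bases lie between its end and the end of the UTR. In Efna1 and Pan2 the element comes after such a signal, with 5 and 12 bases left. A match of letters does not show a site in use, and its absence in the other called genes covers only this window and 1 transcript per gene.

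Bub1b (chromosome 2, 118598211 to 118641591, plus strand) encodes BUBR1, which holds back the anaphase-promoting complex until chromosomes are attached. It stood at 176, 280 and 213 CPM in the WT libraries and at 585, 496 and 591 CPM in the KO libraries, with no overlap. The log2 fold change was 1.32 (SE 0.21, edgeR adjusted p = 0.0315), and the call was lost without WT_PN3 replicate 1 (adjusted p = 0.144) or 3 (0.125) and without KO_PN3 replicate 1 (0.149) or 3 (0.0936). In the list of 48 spindle checkpoint and anaphase-promoting complex genes Bub1b was the 1 called member, and the list's median log2 fold change was 0.02. For this and the lists below, 0.132% of all tested genes were called, and 2.67% with the block. The lists were chosen with earlier results of these data known. With the replicate block Ttk, the checkpoint kinase MPS1, and Anapc5, a subunit of the complex, were called lower. Ttk stood at 183 ± 12.3 CPM in WT against 119 ± 11.7 CPM in KO, and Anapc5 at 95.1 ± 21.2 and 58.6 ± 12.6 CPM (SD, n = 3 each).

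The kinases of the cell cycle and of meiotic arrest were called only with the block. In the list of 44 cyclins, cyclin-dependent kinases and regulators 0 were called. With the block Cdk1, the kinase of entry into M phase, was called lower (76.4 ± 15.8 CPM in WT, 37.6 ± 3.04 CPM in KO), and Mos, the kinase that keeps mature oocytes arrested, was called higher (26.8 ± 2.74 and 55.4 ± 17.7 CPM, SD, n = 3 each). Another list held 27 mRNAs known to be recruited for translation when mouse oocytes mature. Mos, Dcp1a and Bub1b were its 3 members called with the block, all higher, and Bub1b the 1 called without it. Over all tested genes 1.43% were called higher with the block and 0.0898% without it. As the list was chosen with earlier results of these data known, these counts are a description. Of 42 genes of replication licensing and forks 0 were called in either fit, with 3 entirely higher and 2 entirely lower in KO, shares near the 5.9% and 6.96% of all tested genes.

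Among metabolic and lysosomal enzymes, 1 gene rose and 1 fell. Taldo1 (chromosome 7, 141392199 to 141402968, plus strand) encodes transaldolase of the pentose phosphate pathway. It stood at 21.4, 16.5 and 19.9 CPM in WT against 59.7, 54.7 and 72.3 CPM in KO, so the lowest KO library was above every WT library by more than the spread within either group. Its log2 fold change was 1.69 (SE 0.20, edgeR adjusted p = 0.0122), with the call lost without WT_PN3 replicate 1 (0.062) or 3 (0.0912). Among the 28 tested genes of the pentose phosphate pathway and glycolysis no other gene was called, and the glycolytic Tpi1 was called lower with the block (54.7 ± 19.6 CPM in WT against 31.1 ± 4.32 CPM in KO).

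Glb1 (chromosome 9, 114401076 to 114474898, plus strand), the lysosomal beta-galactosidase, stood at 16.3, 11.4 and 16.8 CPM in WT against 4.34, 2.69 and 4.19 CPM in KO. The groups did not overlap, and the log2 fold change was -1.98 (SE 0.28, edgeR adjusted p = 0.0154). The call was lost without WT_PN3 replicate 1 (0.111) or 3 (0.0998) and without KO_PN3 replicate 1 (0.085) or 3 (0.0781). An exon of Glb1 overlaps Tmppe on the same strand, which had between 4 and 24 counts, fewer than the 48 to 449 of Glb1. In the list of 62 lysosomal enzymes and membrane proteins Glb1 was the 1 called member. With the block Manba, the lysosomal beta-mannosidase, and Npc1, the cholesterol transporter of late endosomes, were called higher, and Npc2, its soluble partner, lower. Manba stood at 17.4, 4.86 and 29.6 CPM in WT against 128, 39.2 and 99.2 CPM in KO, Npc1 at 58.5 ± 18.8 and 114 ± 17.9 CPM and Npc2 at 80.5 ± 13.6 and 53.6 ± 6.80 CPM (SD, n = 3 each). Replicate 2 was the lowest Manba library of each genotype.

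Efna1 (chromosome 3, 89271733 to 89281142, minus strand) encodes ephrin-A1, a membrane-bound ligand of Eph receptors. It stood at 9.46, 12.6 and 8.09 CPM in WT against 45.1, 27.7 and 57.4 CPM in KO (log2 fold change 2.11, SE 0.29, edgeR adjusted p = 0.0142). Gli2 (chromosome 1, 118834132 to 119053619, minus strand), a transcription factor at the end of the Hedgehog pathway, stood at 30.7, 26.1 and 27.4 CPM in WT against 84.4, 64.3 and 72.3 CPM in KO (log2 fold change 1.39, SE 0.22, edgeR adjusted p = 0.0315). In both genes all KO libraries lay above all WT libraries. Both were called among 28 tested genes of Hedgehog and ephrin signalling, whose median log2 fold change was 0.13. Over all tested genes 0.0898% were called higher, and 1.43% with the block. As the list was chosen with earlier results of these data known, its count is a description. With the block the receptor gene Ephb1 was also called higher (0.980 ± 0.697 CPM in WT against 5.24 ± 1.53 CPM in KO), while Gli3, the partner of Gli2, had an adjusted p of 0.257 without the block and 0.0557 with it, at 172 CPM in WT against 71.6 CPM in KO. Without WT_PN3 replicate 3 the edgeR adjusted p was 0.0968 for Efna1 and 0.156 for Gli2.

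Mfhas1 (chromosome 8, 35587798 to 35679449, plus strand), which encodes a leucine-rich repeat protein, stood at 12.1, 19.9 and 10.5 CPM in WT against 59.6, 134 and 52.0 CPM in KO, with replicate 2 the highest of each genotype. Its log2 fold change was 2.53 (SE 0.38, edgeR adjusted p = 0.0256, and 0.117 without WT_PN3 replicate 3). Tln2, the adhesion protein talin-2, stood at 13.8, 16.3 and 18.5 CPM against 38.9, 41.8 and 36.4 CPM, a difference larger than the spread of either group (log2 fold change 1.27, edgeR adjusted p = 0.0498). It lost its call in all 6 fits without 1 library, with adjusted p between 0.0964 and 0.219. Gipc2, a PDZ-domain adaptor (chromosome 3, 152093533 to 152166230, minus strand), was lower, at 140, 150 and 163 CPM in WT against 60.7, 55.5 and 62.5 CPM in KO (log2 fold change -1.34, SE 0.19, edgeR adjusted p = 0.0154, and 0.0987 without WT_PN3 replicate 1). The antisense gene Gm31881, which overlaps an exon of Gipc2, had 85, 69 and 86 counts in WT and 41, 22 and 39 counts in KO. Reads of both cannot be told apart without the strand setting, which the sources used here do not give.

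Tnfrsf21, a death receptor of the tumour necrosis factor receptor family, was lower by a wider margin from a low level. It had 107, 86 and 121 counts in WT and 10, 8 and 9 counts in KO (log2 fold change -3.40, SE 0.57, edgeR adjusted p = 0.0374). That call was lost in all 6 fits without 1 library, with adjusted p between 0.0689 and 0.188. Adamtsl3, a secreted matrix protein, went the other way, with 6, 5 and 2 counts in WT and 91, 22 and 50 counts in KO. The log2 fold change was 3.65 (SE 0.60, edgeR adjusted p = 0.0374), and without WT_PN3 replicate 3 the adjusted p was 0.153.

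Klhl12, a substrate adaptor of a cullin ubiquitin ligase, stood at 31.5, 25.2 and 34.5 CPM in WT against 97.7, 71.9 and 89.6 CPM in KO (log2 fold change 1.51, edgeR adjusted p = 0.0139). Marchf7, a ubiquitin ligase, stood at 14.2, 19.4 and 19.9 CPM against 47.1, 37.6 and 50.5 CPM (log2 fold change 1.34, edgeR adjusted p = 0.0374). Uspl1, a SUMO protease, stood at 14.6, 14.7 and 14.7 CPM against 36.4, 27.5 and 29.4 CPM (log2 fold change 1.08, edgeR adjusted p = 0.0374). The 3 WT libraries of Uspl1 were nearly equal, and no library of these 3 genes crossed between the groups. Elob, the elongin B of cullin ligases and of transcription elongation, was higher from a low level, with 31, 41 and 26 counts in WT and 107, 106 and 82 counts in KO (log2 fold change 1.69, edgeR adjusted p = 0.0374). Exons of Elob and Uspl1 overlap Srrm2 and Hmgb1 on the opposite strand, which had 4147 to 6382 and 2922 to 4006 counts. The Elob and Uspl1 levels are uncertain for that reason. Without WT_PN3 replicate 3 the adjusted p was 0.0968 for Klhl12, 0.117 for Marchf7, 0.155 for Uspl1 and 0.149 for Elob.

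The splicing factor gene Cdc5l had uneven KO libraries. Cdc5l (chromosome 17, 45391884 to 45433737, minus strand) had 38, 4 and 6 counts in WT and 733, 140 and 928 counts in KO, or 1.38, 0.212 and 0.262 CPM against 29.7, 7.85 and 44.2 CPM. The lowest KO library was still several times above the highest WT library (log2 fold change 5.39, SE 0.72, edgeR adjusted p = 0.0139). The call was lost without WT_PN3 replicate 3 alone (adjusted p = 0.0968). The opposite-strand gene B230354K17Rik, which shares exonic bases with it, had at most 48 counts. Of the 46 genes of the core spliceosome no other was called, the median log2 fold change was 0.13, and with the block Sf3b5 (60.0 and 87.8 CPM) and Sf3b6 (10.9 and 29.1 CPM), both of the U2 particle, were called higher.

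Dppa5a, an RNA-binding protein of early embryos and germ cells, stood at 41.7, 43.4 and 47.6 CPM in WT against 99.7, 115 and 134 CPM in KO. The groups were well apart (log2 fold change 1.39, SE 0.18, edgeR adjusted p = 0.0139, and 0.0912 without WT_PN3 replicate 3). It was the 1 call among 25 Dppa and pluripotency genes, and the sources used here do not say how reads shared with close copies were treated. Tmem159, a protein of lipid droplet formation, had 73, 51 and 69 counts in WT and 302, 158 and 195 counts in KO (log2 fold change 1.86, edgeR adjusted p = 0.0315). Sertad1, a cofactor of transcription, had 11, 9 and 10 counts against 50, 72 and 45 counts (log2 fold change 2.63, edgeR adjusted p = 0.0154). Every KO library of both genes was above every WT library. Without WT_PN3 replicate 3 the adjusted p was 0.117 for Tmem159 and 0.0998 for Sertad1.

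At the low end some genes were near or at 0 in 1 genotype. Chst9, a sulfotransferase that acts on sugar chains, had 0, 2 and 2 counts in WT and 324, 98 and 56 counts in KO, a KO to WT ratio of 130 (95% counting interval 50.6 to 480). The interval covers counting error only, since PCR copies are not independent molecules. F730035P03Rik had no count in WT and 5, 8 and 7 counts in KO, at least 7.27-fold higher when the WT group is set to a floor of 3 counts in all. Nt5dc2 had 25, 18 and 26 counts in WT and none in KO, at least 21.1-fold lower by the same floor, Ajuba, a LIM-domain protein, was at least 10.1-fold lower (8, 11 and 14 counts), and Bhlhb9 at least 8.55-fold lower (15, 6 and 7 counts). Bhlhb9 overlaps Gprasp1 on the same strand, with 64 to 273 counts, so its level depends on how shared reads were assigned. BC003965 had 30, 19 and 19 counts in WT and 4, 4 and 3 in KO, a ratio of 5.67 (95% counting interval 2.98 to 11.9). The edgeR adjusted p was 0.0315 for Chst9, 0.0498 for F730035P03Rik, 0.0256 for each of Nt5dc2, Ajuba and Bhlhb9, and 0.0122 for BC003965. Each of these 6 calls was lost without single libraries, and the highest edgeR adjusted p was 0.15 for Chst9 and 0.112 for Nt5dc2, Ajuba and Bhlhb9 without KO_PN3 replicate 1, 0.144 for F730035P03Rik without WT_PN3 replicate 1 and 0.0675 for BC003965 without WT_PN3 replicate 3.

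The transcripts with no described product were called as well. Gm43269 (chromosome 5, 119914938 to 119916846, plus strand) was nearly equal in the WT libraries, at 241, 239 and 240 CPM in WT against 64.3, 57.9 and 52.3 CPM in KO. Its log2 fold change was -2.04 (SE 0.26, edgeR adjusted p = 0.0122), and it lost its call without WT_PN3 replicate 1 (0.062) or 3 (0.0779). 2310040G24Rik had 4, 5 and 4 counts in WT and 36, 33 and 20 counts in KO (log2 fold change 2.86, edgeR adjusted p = 0.0122, and 0.0987 without WT_PN3 replicate 1). Tpm3-rs7, a copy related to the tropomyosin gene Tpm3, had 10, 18 and 8 counts against 79, 180 and 143 counts (log2 fold change 3.61, edgeR adjusted p = 0.0154, and 0.111 without WT_PN3 replicate 1). Reads of Tpm3-rs7 may be shared with its parent gene, so that level is uncertain.

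**Figure D3:**
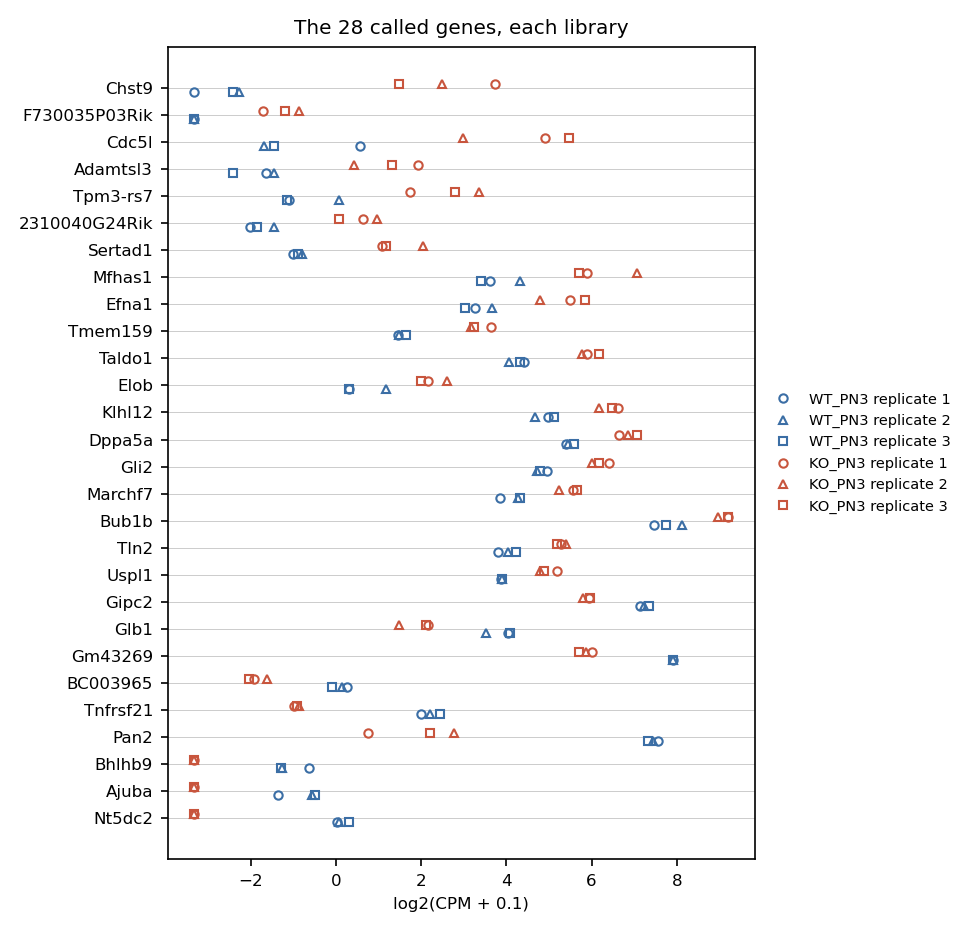
The level of each of the 28 called genes in each PN3 library (x axis, log2 of CPM plus 0.1; blue WT, red KO; circle, triangle and square for replicates 1, 2 and 3). In every row the 3 red symbols lie on 1 side of the 3 blue symbols, and symbols at the left end are libraries with no count.

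Genes called with the block and not without it are given next. They depend on the close L2C replicates too, since 13 genes were called in place of 566 when the block was kept and L2C replicates 1 and 2 were summed, 11 of the 28 among them. Among the 10 highest log2 fold changes of genes whose higher group reached 10 CPM, Plac1, a gene known from placenta, stood at 1.02, 1.37 and 4.46 CPM in WT against 15.9, 13.0 and 28.1 CPM in KO (edgeR adjusted p = 0.131, and 0.00852 with the block). Fxyd6, a modulator of the sodium pump, stood at 4.91, 3.33 and 8.09 CPM against 23.7, 47.8 and 26.7 CPM (0.0526, and 0.0212 with the block). Adcy2, an adenylyl cyclase, stood at 6.58, 1.69 and 3.85 CPM against 20.6, 10.9 and 19.9 CPM (0.0834, and 0.00178 with the block). In each of these, all KO libraries were above all WT libraries, as the rule for naming them required. The serotonin receptor gene Htr5b (3.15 and 13.8 CPM) and the cation channel gene Trpa1 (8.06 and 27.6 CPM) were named by the same rule, besides Cdc5l, Manba, Mfhas1, Efna1 and Tmem159.

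On the lower side the block called Igfbp7, a secreted protein that binds insulin-like growth factors, at 15.9, 19.7 and 17.6 CPM in the WT libraries and 4.10, 6.39 and 3.52 CPM in the KO libraries (edgeR adjusted p = 0.0755, and 0.014 with the block). Bicc1, an RNA-binding protein known from maternal control of polarity in Drosophila, stood at 40.2, 67.3 and 23.9 CPM against 9.53, 15.3 and 15.2 CPM (0.159, and 0.02 with the block). In Igfbp7 replicate 2 was the highest library of each genotype. Other decreases named by the rule were Agbl2 (18.8 and 5.15 CPM), a carboxypeptidase that acts on tubulin tails, Xlr4a (24.8 and 7.90 CPM), Psg16 (12.3 and 4.46 CPM), Rtbdn (13.6 and 3.17 CPM) and Zfp385b (10.3 and 2.25 CPM), besides Pan2 and Glb1. Of the 566 genes called with the block, 496 were also called with the block in the PN3 libraries alone, and 299 by DESeq2. The pairing by number was read from the counts, as the labels do not state it.

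Among the other deadenylases no gene was called. Of 8 deadenylases outside CCR4-NOT, Pan2 was the 1 called. Pan3, the partner of PAN2, stood at 286 CPM in WT against 299 CPM in KO, and Parn, the poly(A)-specific ribonuclease, at 51.6 and 53.1 CPM. Of 12 CCR4-NOT subunits 0 were called, with or without the block, 0 were entirely higher or lower in KO, and the lowest edgeR adjusted p was 0.547. The catalytic subunit genes Cnot6l (454 and 426 CPM), Cnot6 (41.1 and 40.9 CPM), Cnot8 (196 and 209 CPM) and Cnot7 (578 and 809 CPM) are examples. Of 23 adaptors that bring deadenylases to mRNAs 0 were called in either fit, at a median log2 fold change of 0.12. Among them Btg2 stood at 22.3 and 32.0 CPM and Zfp36 at 22.3 and 15.6 CPM. A miss of the threshold does not show equal levels, and the log2 fold change of Cnot7 was 0.48 with an SE of 0.35.

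Downstream steps of decay gave calls only with the block, against 1.43% of all genes called higher and 1.24% called lower in that fit. Of 22 decapping and 5′-3′ decay genes the block called 2 higher and 1 lower. Dcp1a, a cofactor of the decapping enzyme, stood at 440, 330 and 414 CPM in WT against 818, 653 and 973 CPM in KO (edgeR adjusted p = 0.0998, and 0.0026 with the block), Lsm5, of the ring that binds shortened tails, at 17.4 ± 4.17 and 37.1 ± 4.49 CPM, and Pnrc1 at 158 ± 28.4 and 102 ± 12.6 CPM (SD, n = 3 each). In Dcp1a the groups did not overlap. Of 31 uridylation, exosome and nonsense-mediated decay genes the block called 3 higher and 0 lower. These were Upf1, the helicase of nonsense-mediated decay (122 ± 59.9 CPM in WT against 267 ± 172 CPM in KO), Smg8, a regulator of the kinase that acts on it (35.04 ± 2.34 and 67.1 ± 6.13 CPM), and the terminal uridylyltransferase gene Tut1 (16.2 ± 3.35 and 29.4 ± 8.92 CPM, SD, n = 3 each). Upf1 was highest in replicate 2 of each genotype (191 and 466 CPM), and its groups overlapped.

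Tail-binding and tail-lengthening genes gave a single call with the block among 28 members. This was Cpeb1, which binds the element whose letters were searched and controls cytoplasmic polyadenylation, at 168, 249 and 203 CPM in WT against 353, 397 and 428 CPM in KO. The groups did not overlap (log2 fold change 0.93, edgeR adjusted p = 0.119, and 0.00607 with the block). Of 22 oocyte mRNA storage genes the block called Lsm14b higher (162 ± 160 and 295 ± 316 CPM) and Ybx3 lower (90.6 ± 39.9 and 43.0 ± 27.3 CPM), both with overlapping groups (SD, n = 3 each). Of 17 genes for writing, removing or reading m6A, an RNA mark, the block called the reader gene Ythdf2 higher (81.3 ± 17.6 and 128 ± 13.0 CPM). YTHDF2 is known to bring deadenylases to marked mRNAs.

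In the maternal gene groups that follow, members were called only with the block. Over all tested genes that fit called 1.43% higher and 1.24% lower, and the main fit called 0.132% in either direction. Of 28 genes of the subcortical maternal complex and other maternal-effect genes 0 were called, and with the block 1 was. This was Nlrp14, at 1006 ± 148 CPM in WT against 1803 ± 281 CPM in KO (SD, n = 3 each, edgeR adjusted p = 0.256, and 0.0041 with the block). Of 37 zona pellucida, secreted and regulatory oocyte genes the block called Gdf9, an oocyte growth factor (971 ± 177 and 1423 ± 148 CPM), and Tcl1b4 higher and Cd9 (30.01 ± 9.64 and 17.9 ± 5.17 CPM) and Izumo1r (271 ± 79.6 and 163 ± 53.3 CPM) lower. Cd9 and Izumo1r encode the egg membrane proteins of sperm fusion and sperm binding. In that list 7 members were entirely higher in KO, Zp1 and Zp3 among them, and 0 entirely lower, against 5.9% and 6.96% of all tested genes. Of 38 genes of DNA methylation and maternal reprogramming 0 were called in either fit.

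Of 53 genes of the minor wave of zygotic genome activation 0 were called, and the block called Elf3 and Usp17lc higher and Trim43c and Arg2 lower. Elf3, an epithelial transcription factor, stood at 13.1, 16.6 and 19.3 CPM in WT against 38.2, 47.3 and 32.3 CPM in KO, without overlap (edgeR adjusted p = 0.0548, and 0.012 with the block). Usp17lc has near-identical copies, so its level (0.848 and 2.697 CPM) is uncertain. Of 45 factors linked to genome activation 0 were called in either fit, and Tead4, for instance, had counts in 1 library alone. Of 48 writers and erasers of histone methylation 0 were called, and 10 were entirely higher and 1 entirely lower in KO, against 5.9% and 6.96% of all tested genes. Among the 10 were Kdm5b, a demethylase of histone H3 (7.36 ± 0.683 and 14.3 ± 4.38 CPM, SD, n = 3 each, called with the block), Setd2 (71.1 and 96.5 CPM) and Kmt2e (14.1 and 20.0 CPM). The median of that list was 0.11 and turned to -0.03 without KO_PN3 replicate 2.

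Stress and housekeeping lists held genes that differed in both directions. In the integrated stress response (29 genes, 0 called) the block called Ddit3, the transcription factor CHOP, lower (29.5, 26.8 and 28.4 CPM in WT against 14.2, 14.9 and 9.47 CPM in KO) and Ppp1r15a, a regulator of the phosphatase that ends the response, higher (41.3 ± 7.5 and 70.0 ± 8.20 CPM). Ddit3 lies within 5 Mb of Pan2 on chromosome 10. Among 42 genes of p53, apoptosis and DNA damage (0 called) the block called Mdm4 (3213 ± 520 and 2161 ± 462 CPM) and H2ax (11.7 ± 3.28 and 5.28 ± 1.22 CPM) lower and Pmaip1 higher. Of 82 cytosolic ribosomal protein genes 0 were called, and the median log2 fold change was -0.03. The block called 8 of the 82 higher and 6 lower. These shares are above the 1.43% and 1.24% of all tested genes called in that fit. All 13 mitochondrial mRNAs had negative log2 fold changes, with 0 called, overlapping groups and a median of -0.20 that became 0.03 without WT_PN3 replicate 3. Among 7 tested rRNA-derived genes 0 were called.

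**Figure D4:**
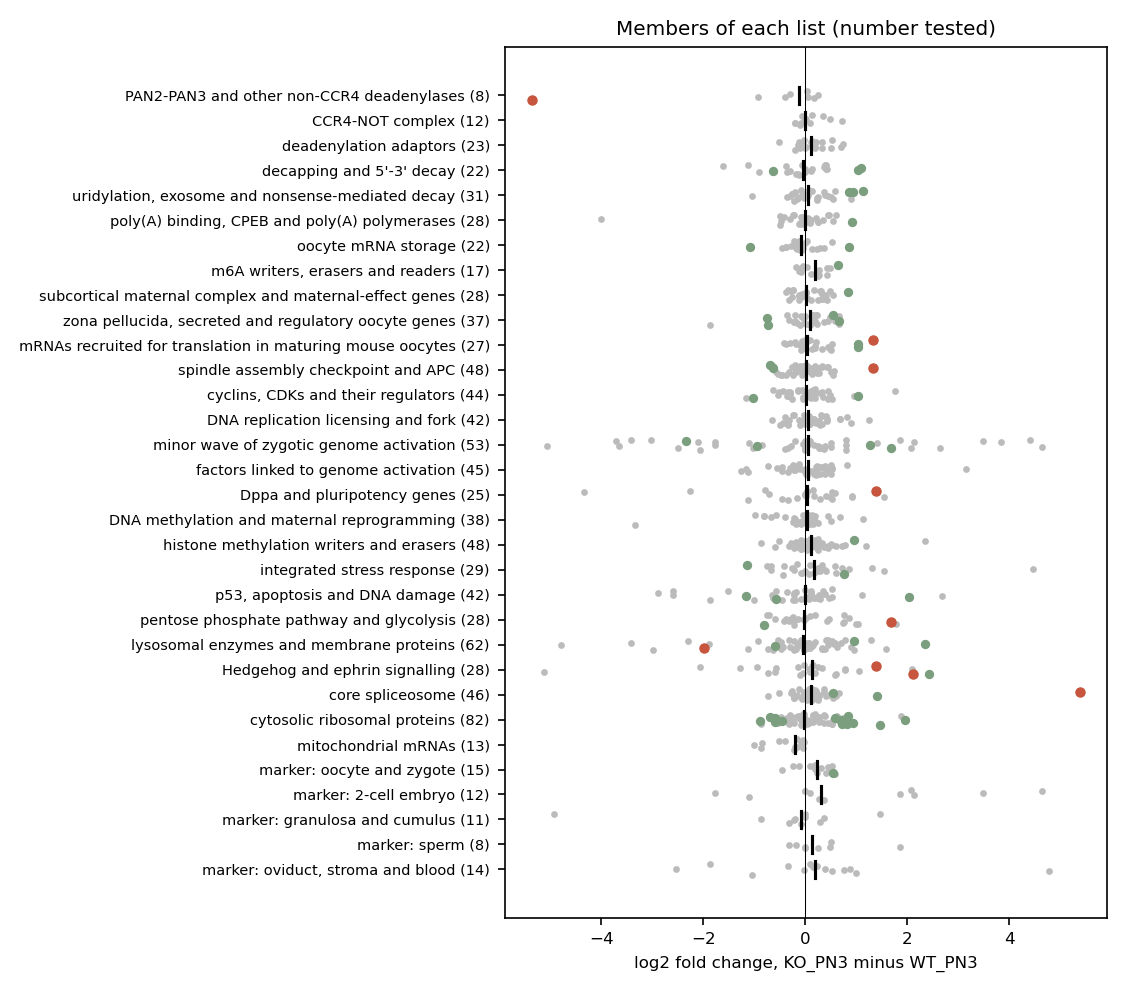
Log2 fold changes, KO minus WT, of the tested members of each gene list (points; the number tested is in parentheses). Red points are called, green points are called only with the replicate block, grey points are not called, and the black bar is the median of the list. The medians lie between -0.20 and 0.32 while single members reach -5.36 (Pan2) and 5.39 (Cdc5l).

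The called genes were then read in the 2-cell libraries, which the PN3 contrast does not compare. Both contrasts use the same estimate of the spread of a gene, to which the 2-cell libraries contribute. A call at L2C is therefore not independent of the call at PN3, and the counts below are a description. Of the 28 genes, 14 were called at L2C, against 17% of all tested genes (7.24% higher and 9.74% lower in KO). In 7 the direction was the same, with Chst9, Mfhas1 and Tln2 higher and Glb1, Gm43269, BC003965 and Pan2 lower in KO at both stages. Mfhas1 stood at 2.77, 1.71 and 2.63 CPM in WT_L2C and at 17.4, 18.2 and 20.7 CPM in KO_L2C (log2 fold change 2.98, edgeR adjusted p = 0.000913). Gm43269 stood at 76.1, 73.0 and 43.8 CPM against 34.3, 34.3 and 20.7 CPM (log2 fold change -1.11, edgeR adjusted p = 0.0117), and Glb1 at 34.8 ± 5.52 and 14.9 ± 0.670 CPM (SD, n = 3 each, log2 fold change -1.22, edgeR adjusted p = 0.0101). The groups stayed apart at the later stage in all 3.

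In the other 7 the direction was opposite, and all 7 were higher in KO at PN3 and lower in KO at L2C. Taldo1 stood at 109, 113 and 91.1 CPM in WT_L2C and 35.6, 36.6 and 33.0 CPM in KO_L2C, a log2 fold change of -1.58 (edgeR adjusted p = 0.000722). Elob stood at 306 ± 12.7 and 95.7 ± 13.7 CPM (-1.67), Sertad1 at 168 ± 27.0 and 66.0 ± 23.5 CPM (-1.35) and Dppa5a at 975 ± 31.1 and 598 ± 56.7 CPM (-0.70, SD, n = 3 each). The remaining ones were Uspl1 (205 and 89.0 CPM), Tmem159 (18.8 and 8.47 CPM) and 2310040G24Rik (109 and 51.9 CPM). Every one of these 7 genes had its 3 WT_L2C libraries above its 3 WT_PN3 libraries. That order held in 14 of the 19 genes called higher at PN3, in 5 of the 9 called lower and in 40.8% of all tested genes.

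Other genes differed at PN3 and were not called at L2C. Bub1b stood at 26.5 ± 0.724 CPM in WT_L2C and 25.2 ± 4.49 CPM in KO_L2C, and Gipc2 at 36.1 ± 4.49 and 37.8 ± 5.32 CPM (SD, n = 3 each). Cdc5l, nearly without counts in WT_PN3, stood at 47.6 ± 1.42 CPM in WT_L2C and 27.0 ± 6.28 CPM in KO_L2C (SD, n = 3 each, edgeR adjusted p = 0.362). The test of the difference between the stages (the L2C effect of KO less its PN3 effect) called 21 of the 28 genes, against 4.94% of all tested genes (1.85% positive and 3.09% negative). Since the genes were chosen for a difference at PN3, and the interaction uses that difference, its count is a description. Replicates 1 and 2 of each L2C group are close to each other, and with both summed to 1 sample 4 of the 28 were called at L2C and 0 by the interaction.

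**Figure D5:**
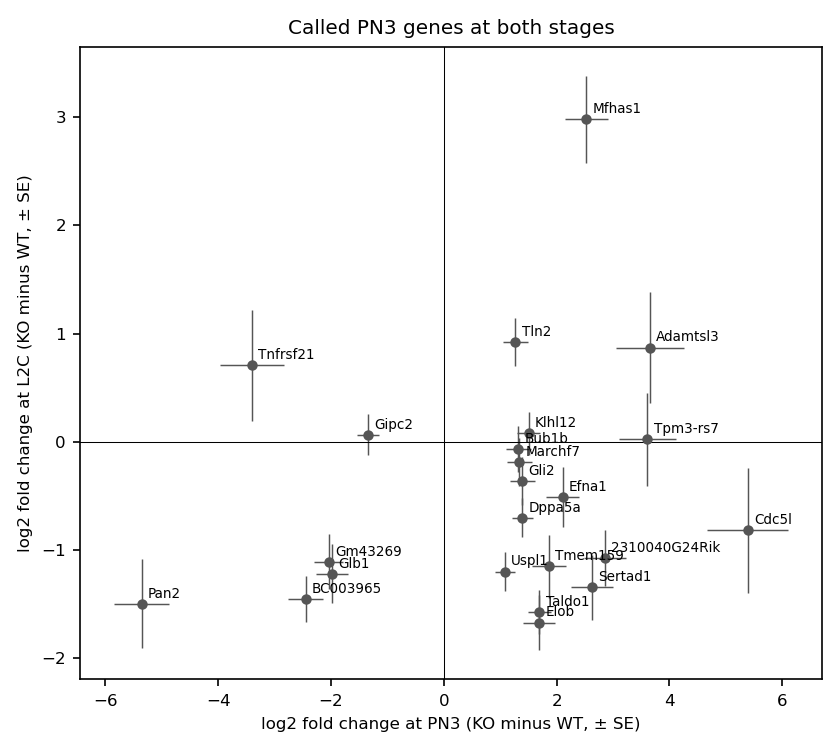
Log2 fold change at PN3 (x axis) against that at L2C (y axis), KO minus WT with SE bars, for the 23 called genes that have counts in all 4 groups. Pan2, Glb1, Gm43269 and BC003965 are lower at both stages, Mfhas1 and Tln2 are higher at both, and the group at the lower right is higher at PN3 and lower at L2C.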

How the data were processed

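Poly(A) RNA of 12 libraries was measured by Smart-seq2 with oligo(dT) priming and about 12 cycles of pre-amplification, per the labels' protocols. The authors deposited raw counts per gene, not normalized, per the file headers. The submitters' processing notes name the mm10 build, DESeq2, featureCounts 2.0.2, STAR 2.7.10a and Trim Galore 0.6.7. The sources used here do not give strand and multi-mapping settings, and no spike-in is named, so levels are relative within a library.

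Of 55291 genes 34131 were removed by filterByExpr. Counts were TMM-scaled and fitted with edgeR 4.0.16 (robust quasi-likelihood, R 4.3.3) as 1 mean per group over all 12 libraries, with Benjamini-Hochberg adjustment over 21160 genes and a threshold of 0.05. Alternatives were DESeq2 1.42.0, limma 3.58.1 (voom), other scalings and filters, a replicate block, other sets of libraries and leaving out each PN3 library. The scripts were tested on simulated data. Where 1 library of a group is left out the remaining ones share the spread of all groups. Counting intervals and floors of 3 counts cover counting error only.

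Same-numbered WT and KO libraries deviated together from their group means. At PN3 the correlation across genes was 0.165, 0.455 and 0.274, and at L2C 0.128, 0.15 and 0.221, all over 0.1. Numbers were therefore taken to pair libraries in the fits with the replicate block. The main fit had no block, and the labels do not state this pairing. Replicates 1 and 3 at PN3 correlated about as much across numbers (0.211 and 0.205), and so did replicates 1 and 2 at L2C (0.132 and 0.14). The correlations therefore do not settle the pairing of these libraries.

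Named genes were Pan2, all called genes (up to 15 per direction by fold, with Marchf7, Tln2 and Uspl1, past these 15, named after their values were seen), the 10 highest and 10 lowest log2 fold changes called with the block (higher group of 10 CPM or more, groups apart, no Gm or Rik name) and, per list, members of lowest p. Other list members were named as examples after their values were seen. 1 gene that the rule names is not reported here. The 33 lists and the rules were chosen with earlier results of these data known. UTR sequences are GENCODE M21 transcripts.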

Additional observations from a re-analysis of the deposited data

Results flagged for a closer look

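For 21 of the 28 genes called at PN3 the effect of the deletion differed between the stages, by the test of the difference itself (edgeR interaction adjusted p, KO effect at L2C minus KO effect at PN3, 3 libraries per group). As the genes were chosen for their PN3 difference, which the interaction uses, these values are a description, and with the close L2C replicates 1 and 2 summed to 1 sample 0 of them were called.

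The 7 genes higher in KO at PN3 and lower at L2C had an interaction adjusted p of 0.000771 (Taldo1), 0.00186 (2310040G24Rik, Elob and Uspl1 each), 0.00291 (Sertad1), 0.00296 (Dppa5a) and 0.0036 (Tmem159). For 8 of the 9 genes higher at PN3 and not called at L2C (all but Adamtsl3) the values were 0.00491 (Cdc5l), 0.00573 (Efna1), 0.01002 (Gli2), 0.0116 (Tpm3-rs7), 0.016 (F730035P03Rik), 0.0166 (Klhl12), 0.0188 (Marchf7) and 0.0218 (Bub1b). Among the genes lower at PN3 they were 0.00615 for Pan2, which was lower at both stages and less so at L2C, 0.00642 for Nt5dc2, 0.0106 for Bhlhb9 and for Ajuba, 0.0115 for Tnfrsf21 and 0.0143 for Gipc2.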

How the results depend on the processing

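The number of genes called at PN3 (28, with 19 higher and 9 lower) differed between fits, and the cause was not tested. It was 566 (303 higher, 263 lower) with the replicate block within stages, 1521 (821 and 700) with the block in the 6 PN3 libraries alone, and 0 (0 and 0) in those libraries without the block, where 1298 genes had an unadjusted p under 0.05 and Pan2 stood at -5.34 (edgeR adjusted p = 0.0683). With L2C replicates 1 and 2 summed it was 1 (0 higher, 1 lower), and 13 (9 and 4) when the block was added to that. It was 2029 (1001 and 1028) without the rRNA-rich libraries of both stages, which leaves the close L2C pairs in the estimate, and 1218 (596 and 622) with only the PN3 libraries and no replicate 2. DESeq2 gave 538 (307 and 231), limma voom with quality weights 1100 (502 and 598), no filter 78 (43 and 35) and a filter of at least 5 CPM in 3 libraries 47 (33 and 14). The fit with no replicate 2 and only PN3 libraries, and the block with summed L2C replicates, were chosen after seeing the data.

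Leaving out each PN3 library gave 1 to 35 calls (0 to 20 higher, 1 to 15 lower), 14 in each fit for the 28 genes at L2C, 18 to 22 by the interaction, 1 to 8 called list members and -5.86 to -4.99 for Pan2. Of list members, 8 were called, and 58 with the replicate block, 0 in the PN3 libraries alone, 121 there with the block, 1 with L2C replicates summed, 6 when the block was added to that, 162 without the rRNA-rich libraries, 87 with only PN3 libraries and no replicate 2, 14 with no filter, 36 by DESeq2 and 75 by voom. The lists held 956 genes, not all of them tested, and were chosen with earlier results of these data known. Over all tested genes the shares called were 0.132% in the main fit and 2.67% with the block. They were 10.2% with the block in the PN3 libraries alone and 2.89% by DESeq2. Of the 28 genes, 14 were called at L2C, but 4 with L2C replicates summed and 6 with the block added, and 21 by the interaction, but 0 and 9.

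Scalings gave 27 to 38 calls and moved the median of genes of at least 1 CPM between -0.02 and 0.03. Of the 576 refits of single called genes 382 kept the call, 194 lost it and 0 reversed. A reversal was hardly possible, since the KO and WT libraries of these genes did not overlap. Genes of few counts, such as those at 0 in 1 genotype, are limited by depth.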

Other observations

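The genes called with the block lay at higher levels per length than other genes. Their median percentile of the level per kilobase among tested genes was 75.5 for the 303 higher and 84.4 for the 263 lower genes, against 50 for all, and their median lengths were 3841 and 2823 bases, against 3267.5. The 28 called genes lay closer to the rest, with median percentiles of 65.5 for the higher and 43.7 for the lower ones. Of them 5 lie on chromosome 7 (0.298% of its tested genes), 4 on chromosome 17 (0.404%), 3 on chromosome 14 (0.418%) and 3 on chromosome 9 (0.25%), against 0.132% of all tested genes. Around Pan2, the block called 3 of 113 tested genes within 5 Mb, namely Ddit3, Naca and Rpl41, a share near the 2.67% of all tested genes called in that fit. The keratin gene Krt8 was the 1 of 14 tested members of the oviduct, stroma and blood list whose KO libraries (11, 4 and 7 counts) lay all below the WT libraries (36, 28 and 22 counts), with an edgeR adjusted p of 0.159. As 6.96% of all tested genes lay entirely below in KO, 1 such member is near that share and says little.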
